A study of Mus musculus with 18 samples.

Results

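The hippocampus of male C57BL/6 mice that had received urban particulate matter through the nose for 8, 12, 16 or 20 weeks was compared with the hippocampus of vehicle-treated mice. The comparison holds 5 of the 18 libraries of the study, chosen by their labels: 4 exposed libraries, 1 for each length of exposure, and 1 control. The exposed mice received UPM, the certified reference dust SRM 1648a, suspended in phosphate-buffered saline 2 times per week, and the control mice received the saline alone. All mice were 7 weeks old at the start, the time at which the control was taken is not stated in the labels, and each library was made from 1 RNA pool of a group's mice. The number of mice in a pool is not given in the sources used here. The 5 cortical libraries of the same groups (control and 8, 12, 16 and 20 weeks) served as a second tissue, each read against its own control. The file headers carry the numbers 12, 16 and 20 for the libraries of those weeks, but the number 1 for both the control and the 8-week library of each tissue, and groups follow the labels.

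The hippocampus lies along the lateral ventricle and carries the choroid plexus on its fimbrial edge. The choroid plexus is a secretory epithelium that makes cerebrospinal fluid and exports transthyretin, a carrier of thyroid hormone and retinol. Ciliated ependymal cells line the ventricle wall beside it. Inhaled particles are studied in the brain for their relation to glial activation, antigen presentation, interferon signalling and antioxidant enzymes, and neurons of the dentate gyrus and the CA fields make up most of the tissue's own signature.

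The 5 hippocampal libraries held 7.51 to 8.08 M counts, so that 1 count equals 0.124 to 0.133 CPM (counts per 1e6 counts), and Rn45s, the ribosomal RNA precursor, took 8.85% to 11.5% of them (10.1% in the control). The defining markers of hippocampal neurons were present in every library. Per total counts, Prox1 and Dsp, both genes of dentate granule cells, stood at 28.6 and 25.7 CPM in the control. They stood at 16.3 to 31.1 and 24.8 to 39.8 CPM in the exposed libraries, and at no more than 5.87 and 0.668 CPM in the 5 cortical libraries. C1ql2, a synaptic protein of mossy fibres, and Fibcd1, a gene of CA1 pyramidal neurons, were likewise higher in all 5 hippocampal than in all 5 cortical libraries. Cortical markers were present too, and Tbr1, Rorb and Cux2 were highest at 16 weeks. Tbr1 stood at 41.7 CPM in the control and 43.4, 50.2, 85.2 and 60.4 CPM in the exposed libraries. Rorb stood at 85.0 and 105, 90.5, 163 and 105 CPM, and Cux2 at 8.29 and 9.65, 5.59, 20.0 and 11.7 CPM. Fezf2 went another way, at 95.8 CPM in the control and 49.9, 106, 61.1 and 41.4 CPM in the exposed libraries. The cortical libraries held 123 to 161 CPM of Tbr1 and 207 to 262 CPM of Rorb. Over all genes the 16-week library differed less from the cortical control than from the hippocampal control, with a chi-squared per degree of freedom of 13.2 against 16.4, while the other hippocampal libraries differed more from the cortical control than from their own.

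Genes of the choroid plexus epithelium made up the clearest difference between the exposed hippocampus and its control. Ttr, which encodes transthyretin (chromosome 18, 20664209 to 20674326), had 266 counts in the control and 21780, 14304, 37886 and 25087 counts at 8, 12, 16 and 20 weeks. Clic6, a chloride channel gene of secretory epithelia (chromosome 16, 92498147 to 92541241), had 6 counts in the control and 170, 137, 227 and 165 in the exposed libraries. Otx2, the homeobox transcription factor of the choroid plexus (chromosome 14, 48656781 to 48667644), had 5 counts in the control and 151, 113, 177 and 115 in the exposed libraries. In each of these genes every exposed library lay above the control, which was also true of 22.2% of all genes tested. The lowest exposed library was at 12 weeks for Ttr and Otx2 as it was for Clic6.

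These 3 genes rose in the edgeR quasi-likelihood test, which compared the 4 exposed libraries with the control (Benjamini-Hochberg adjusted p = 0.0354 for each). The log2 fold change was 6.57 ± 0.64 (SE) for Ttr, 4.87 ± 0.45 for Clic6 and 4.79 ± 0.46 for Otx2. They are 0.0203% of the 14787 genes tested. No gene fell (0% of the genes tested, although 355 genes were lower and 580 higher at an unadjusted p under 0.05). DESeq2 called 20 genes higher and 2 lower, and limma-voom called 2 higher and 0 lower. Because the control is 1 library, its spread was taken to equal that between the exposed times, and anything particular to that library cannot be told apart from exposure. Without the 8-week library no gene passed (smallest adjusted p of the 3 genes 0.111), and without the 20-week library none passed either (0.154 for each). Without the 12-week library 10 genes passed, and without the 16-week library 8. Ttr did not pass in a fit of the 10 libraries of both tissues (adjusted p = 0.171), nor did Clic6 and Otx2 with limma-voom (0.895), where the lowest adjusted p over the alternatives was that of DESeq2 (9.62e-20 for Ttr, 1.39e-09 for Clic6 and 8.11e-08 for Otx2).

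All 17 choroid plexus genes tested were above the control in all 4 exposed libraries, where 22.2% of all genes tested were, and the median log2 fold change of the list was 4.87 against 0.02 over all genes. With the 4 members that had 0 control counts set to their lower bound, the median was 4.45. The filter asked for a minimum level in as few as 1 library. Clic6, Otx2, Kcnj13, Folr1, Kcne2, Slc4a5, Steap1, Cldn2 and Tmem72 were too low in the control to pass it there. They entered only through exposed libraries, so the share of this list above the control is a description. Enpp2, which encodes the lysophospholipase autotaxin (chromosome 15, 54838901 to 54952789), had 1114 counts in the control and 7661, 5631, 9706 and 6423 in the exposed libraries (2.75 ± 0.30), and it missed the threshold (adjusted p = 0.0566). Kcnj13, an inwardly rectifying potassium channel of the apical membrane, had 3 counts in the control and 98, 66, 184 and 132 in the exposed libraries. The ratio of its summed CPM was 41.5 (95% counting interval 14.1 to 202). Folr1, the folate transporter of the plexus, had 1 control count against 71, 25, 62 and 65, a ratio of 57.9 (10.3 to 2.3e+03). Kcne2, a potassium channel subunit, had 1 against 35, 22, 64 and 36, a ratio of 40.8 (7.21 to 1.62e+03).

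Another 4 members had 0 counts in the control. Slc4a5, a bicarbonate transporter of the apical membrane, was at least 9.89-fold higher in each exposed library than 3 counts would be in the control. Steap1 was at least 8.83-fold higher, Cldn2, a pore-forming tight junction protein, at least 6.36-fold higher, and Tmem72 at least 5.3-fold higher. The other members had counts in the control. Sostdc1, a secreted antagonist of BMP and Wnt signals, had 47 control counts and 246, 170, 333 and 212 exposed counts (2.38 ± 0.39). Prlr, the prolactin receptor, had 49 and 396, 175, 433 and 434 (2.90 ± 0.54), and Kl, the anti-ageing co-receptor klotho, had 48 and 203, 134, 308 and 179 (2.13 ± 0.45). F5, coagulation factor V, had 13 and 258, 159, 466 and 243 (4.45 ± 0.73). In each of these members the lowest exposed library lay above the control and none of them passed the edgeR test.

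**Figure D1:**
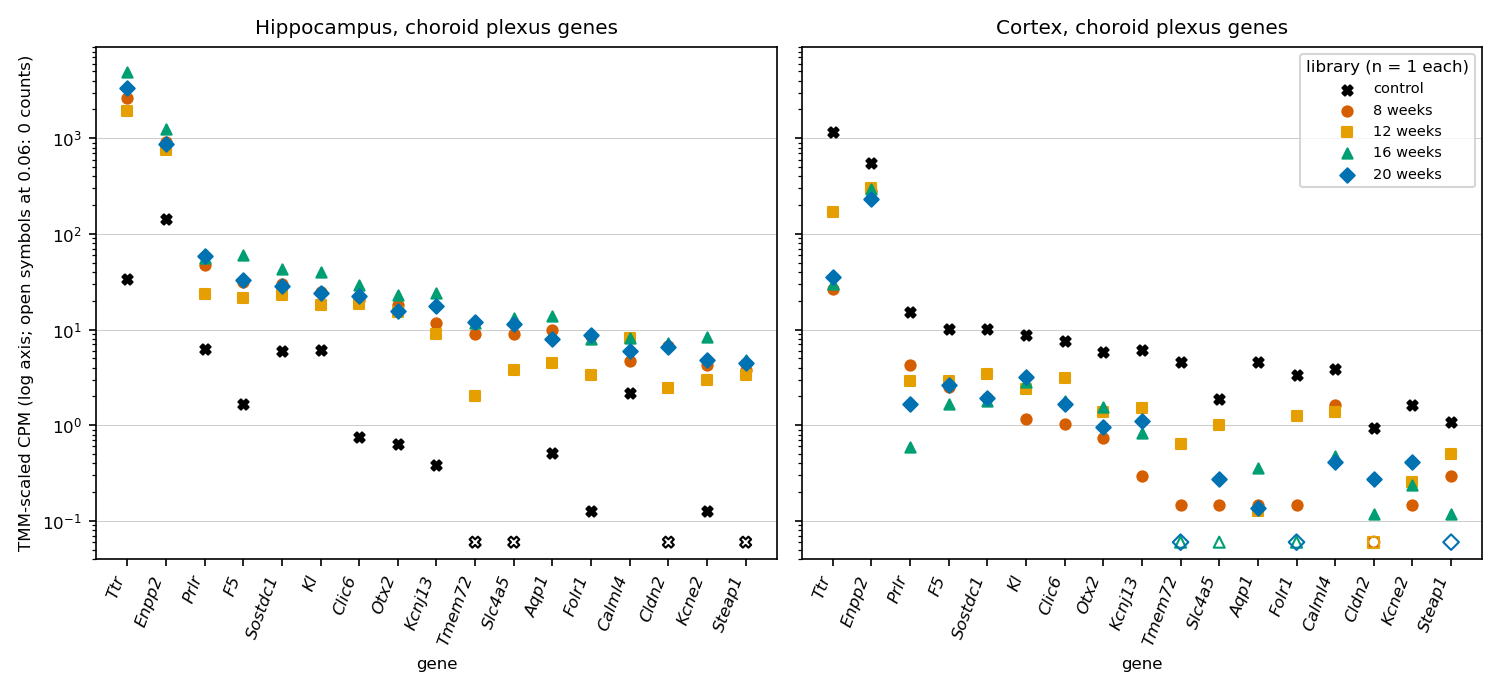
TMM-scaled CPM on a log axis of the 17 choroid plexus genes in the control and the 4 exposed libraries of hippocampus (left) and cortex (right), 1 point per library, with open symbols where a library had 0 counts. In hippocampus the control lies below all 4 exposed libraries for each of the 17 genes, and in cortex it lies above all 4.

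The summed level of the 17 genes was 198 CPM per total counts in the hippocampal control and 3889, 2810, 6657 and 4442 CPM at 8, 12, 16 and 20 weeks. Without Ttr it was 164 CPM in the control and 907 to 1643 CPM in the exposed libraries, and without Ttr and Enpp2 it was 24.4 CPM and 157 to 358.5 CPM. The order did not follow the length of exposure: 16 weeks was highest and 12 weeks lowest. The hippocampal libraries of 3, 5 and 7 days and 3 weeks, whose file headers have another form and which are in none of the tests, spanned 181 to 8134 CPM for the same list. Ttr alone stood at 6140 CPM at 3 days, 188 at 5 days, 18.5 at 7 days and 276 at 3 weeks, against 33.4 CPM in the control, so 1 exposed library of the first week lay below the control. In bulk tissue, the number of cells of a type and the RNA per cell cannot be told apart.

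In cortex these genes lay on the other side of the control at 8 to 20 weeks. All 17 choroid plexus genes were below the cortical control in all 4 exposed cortical libraries, where 20.6% of all genes tested were. Their summed level was 1784 CPM in that control and 279 to 473.5 CPM at 8 to 20 weeks. Ttr had 8632 counts in the cortical control and 179, 1358, 253 and 256 counts in the exposed cortex at these times. In the earlier cortical libraries, which are in none of the tests, Ttr lay on both sides of that control. It stood at 3801 CPM at 3 days, 7.81 at 5 days, 468 at 7 days and 1713 at 3 weeks, against 1152 CPM. A fit over the 10 libraries of both tissues tested the difference between the tissues in exposed minus control. It called 16 of 15037 genes (0.106%) with a higher value in hippocampus than in cortex and none lower (0%), with 1042 genes at an unadjusted p under 0.05 in either direction. DESeq2 called 30 higher and 11 lower, and limma-voom 3 higher and 0 lower. The called genes were 12 of the choroid plexus list, among them Enpp2 (difference 3.74 ± 0.33 log2 units, adjusted p = 0.000393), Otx2 (7.07 ± 0.62, 0.000393) and Clic6 (6.85 ± 0.69, 0.00121), and 4 others: Rbm47, an RNA-binding protein of epithelia, Lbp, the lipopolysaccharide-binding protein, 1500015O10Rik and Plekhh2. Of the 16, 15 lay above the control in all exposed hippocampal libraries and below it in all exposed cortical ones. Kcne2, Kl, Prlr, Rbm47 and Tmem72 lost the call when 1 or more of the exposure times was left out, and limma-voom kept Enpp2, Ttr and Plekhh2. The exception to the opposite sides was Plekhh2, at 84 counts in the hippocampal control and 72 to 88 in the exposed hippocampus but at 342 in the cortical control and 57 to 73 in the exposed cortex. Each tissue had 1 control library, so the spread in this fit came from the exposed times alone. Anything particular to either control cannot be told apart from a difference between the tissues in exposure.

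Otx2 was the only transcription factor among the 3 genes that passed, and a start site of this gene carries the short sequence that OTX proteins bind. The window runs from 250 bases before to 50 bases after a RefSeq start of Otx2 on the minus strand (chr14:48665060-48665359, GRCm38.p6), and the capitals mark the only match to TAATCC, here on the opposite strand.
Otx2: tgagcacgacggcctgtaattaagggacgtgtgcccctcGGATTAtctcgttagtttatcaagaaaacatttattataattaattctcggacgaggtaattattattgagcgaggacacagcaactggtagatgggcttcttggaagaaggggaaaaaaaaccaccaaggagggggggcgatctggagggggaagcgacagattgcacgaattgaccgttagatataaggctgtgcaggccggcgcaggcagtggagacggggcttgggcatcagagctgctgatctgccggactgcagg
TAATCC was searched on both strands, apart from other motifs with which it may overlap. Windows of 12 of the 17 choroid plexus genes were in the RefSeq table. Of these 12 genes, 1 (Otx2 itself) had a match, which is 8.33% and close to the 8.14% of the 27025 genes in the table. The other windows of Otx2 had no match. Counted by window, 5.56% of those of the list had a match, against 7.06% of all windows.

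Beyond the test, 24 genes were at least 2-fold above the control in every exposed library with 50 counts or more in each (0.162% of the genes tested), and 4 were at least 2-fold below it (0.0271%). Ratios were taken between TMM-scaled CPM values after adding a prior count of 2. The 24 were chosen by these values, which are given as a description. Of them 9 belong to the choroid plexus list and 1 to the ependymal list, and 10 belong to none of the lists used here. Just inside the threshold lay Ppfibp2 and Neat1, with a smallest log2 ratio of 1.08 and 1.10, and just outside lay Ace and Fhad1 (0.999 and 0.998). The highest exposed library was that of 16 weeks for 15 of the 24 genes, and the lowest was that of 12 weeks for 15. Since the rule asks for the fold in each exposed library, leaving one out can only add genes: the 28 became 33 without 8 weeks, 61 without 12, 56 without 16 and 44 without 20. In cortex, 14 of the 24 were below their control in all 4 exposed libraries and none was above it in all 4. Over all genes tested, 20.6% were below the cortical control and 20.5% above it.

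Of the 24, 2 are members of the collagen and laminin list, Col8a1 and Col9a3. Col8a1, a short-chain collagen of basement membranes (chromosome 16, 57624256 to 57754737), had 15 counts in the control and 117, 67, 139 and 106 in the exposed libraries. Its partner chain Col8a2, which was under 50 counts at 12 and 20 weeks and so outside the 2-fold set, had 5 and 84, 39, 54 and 47. Col9a3, a chain of a fibril-associated collagen, had 21 and 150, 71, 150 and 110. In all 3 collagen genes the exposed libraries lay above the control without overlap. Of the 49 collagen and laminin genes tested, 26 (53.1%) were above the control in all 4 exposed libraries and 3 (6.12%) below. Over all genes tested, 22.2% were above and 21.3% below. The median log2 fold change of the list was 0.825, and none of its members passed the edgeR test. The meningeal and mural list shares Col1a1, Col1a2 and Col3a1 with the collagen list. Of its 16 genes, 11 (68.8%) were above and 1 (6.25%) below. Their summed level was 358 CPM in the control and 777.5, 368, 333 and 889.8 CPM in the exposed libraries, so the 12- and 16-week libraries lay close to the control. Col1a1, the main fibrillar collagen of fibroblasts, had 64 control counts and 215, 68, 73 and 1486 exposed counts. The part of these cells in the collagen counts was not tested.

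Further genes of the 24 were Cdkn1c, Slc13a4, Msx1os and Six3. Cdkn1c, an inhibitor of cyclin-dependent kinases, had 61 counts in the control and 196, 129, 221 and 221 in the exposed libraries (1.68 ± 0.34, adjusted p = 0.568). Slc13a4, a sulphate transporter of meninges and plexus, had 26 and 178, 84, 70 and 146. Msx1os, a transcript antisense to the homeobox gene Msx1, had 47 and 132, 98, 152 and 103. Msx1 itself had 46 and 134, 88, 140 and 101, and without a stated strand setting in the counting, reads of the pair cannot be told apart. Six3, a homeobox gene of the ventral forebrain, had 20 control counts and 654, 192, 192 and 117 exposed counts, with the 8-week library far above the others.

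Genes of motile cilia stood above the control in nearly every exposed library. Of 11 ependymal genes tested, 10 were above the control in all 4 exposed libraries (90.9%, against 22.2% of all genes tested). None was below, and the median log2 fold change was 1.17. Ccdc153, an axonemal protein gene, had 23 counts in the control and 87, 90, 51 and 55 in the exposed libraries. Ak7, an adenylate kinase of cilia, had 9 and 43, 41, 33 and 27, and Cfap126, a basal body protein, had 18 and 53, 46, 47 and 37. Foxj1, the master regulator of motile ciliogenesis, had 57 and 126, 106, 93 and 90. Each of these genes was higher in all exposed libraries than in the control, by more at 8 and 12 weeks than at 20 weeks for Ccdc153, Ak7 and Foxj1. None passed the edgeR test (smallest unadjusted p in the list 0.00346, for Ak7). The 8- and 12-week libraries were the highest in the summed level of this list (88.9 and 86.5 CPM, against 74.4 and 59.9 at 16 and 20 weeks and 34.7 in the control), which is not the order of the choroid plexus list. Spef2 and Tctn1, a sperm flagellar and a ciliary transition zone protein in the 2-fold set, were lowest at 20 and 16 weeks, with 31 control counts and 87, 103, 75 and 66 for Spef2, and 27 and 69, 79, 60 and 65 for Tctn1.

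**Figure D2:**
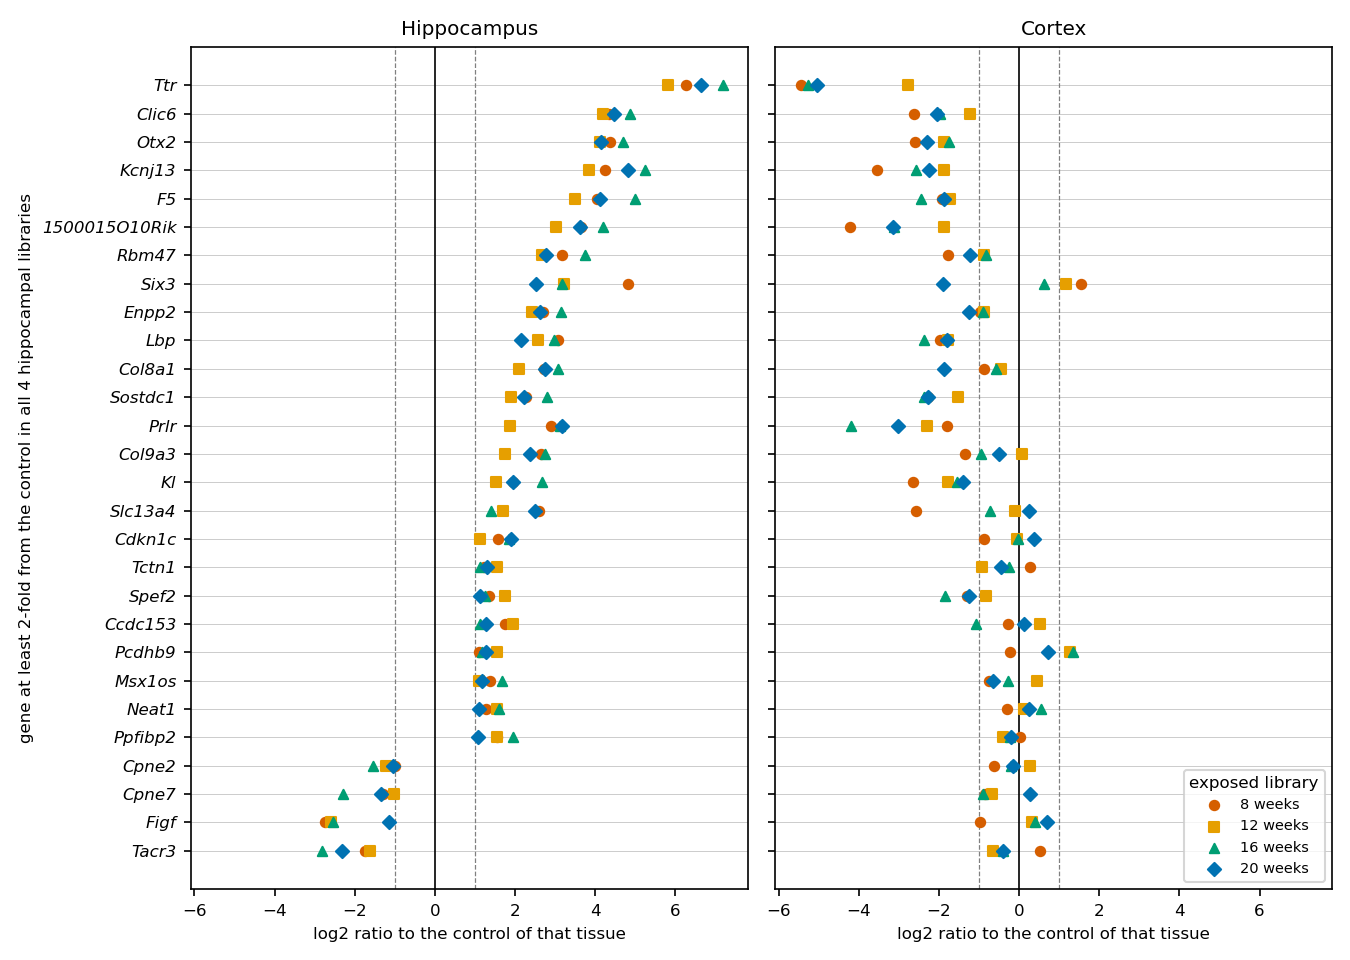
Log2 ratio of each exposed library to the control of its tissue (TMM-scaled CPM, prior count 2) for the 28 genes at least 2-fold from the hippocampal control in all 4 exposed libraries, hippocampus left and cortex right. Dashed lines mark 2-fold; the choroid plexus genes lie right of 0 in hippocampus and left of 0 in cortex, while Neat1, Pcdhb9 and the lower genes do not mirror each other in the tissues.

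Genes of other regions near the hippocampus also varied between the libraries. Of 12 striatal genes tested, 8 were above the control in all 4 exposed libraries (66.7%, against 22.2% of all genes tested) and none below. The summed level of this list was 136 CPM in the control and 190.5 to 338 CPM in the exposed libraries. Drd2, a defining marker of striatal neurons, was at 0 in all 5 libraries, but it was also at 0 in 4 of the 5 cortical ones, where Drd1 had 428 to 1698 counts, so its 0 carries no information here. Of the other defining markers, Drd1 stood at 20.1 CPM in the control and 35.1, 21.0, 28.1 and 55.5 CPM in the exposed libraries. Adora2a had 6 control counts and 19, 10, 16 and 1 exposed counts, so the 20-week library lay below the control. Cortical neuron genes summed to 1870 CPM in the control and 1814, 2099, 3145 and 2786 CPM in the exposed libraries, with 16 and 20 weeks above the rest. Of 16 thalamic and habenular genes, 8 (50%) were above and none below (341 CPM in the control, 366.5 to 754 CPM exposed). The thalamic gene Shox2 had 5 control counts and 331, 14, 19 and 39 exposed counts, and Tcf7l2 had 175 and 1036, 238, 204 and 338, both highest at 8 weeks. Pmch, the hypothalamic melanin-concentrating hormone, had 6 control counts and 258, 5, 1 and 5 exposed counts, so that the 8-week library alone stood apart. Myelin genes shared no side of the control: their summed level was 3877 CPM in the control and 8609, 5766, 5430 and 2256 CPM at 8, 12, 16 and 20 weeks. The part of these region markers in the results given here was not tested.

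**Figure D3:**
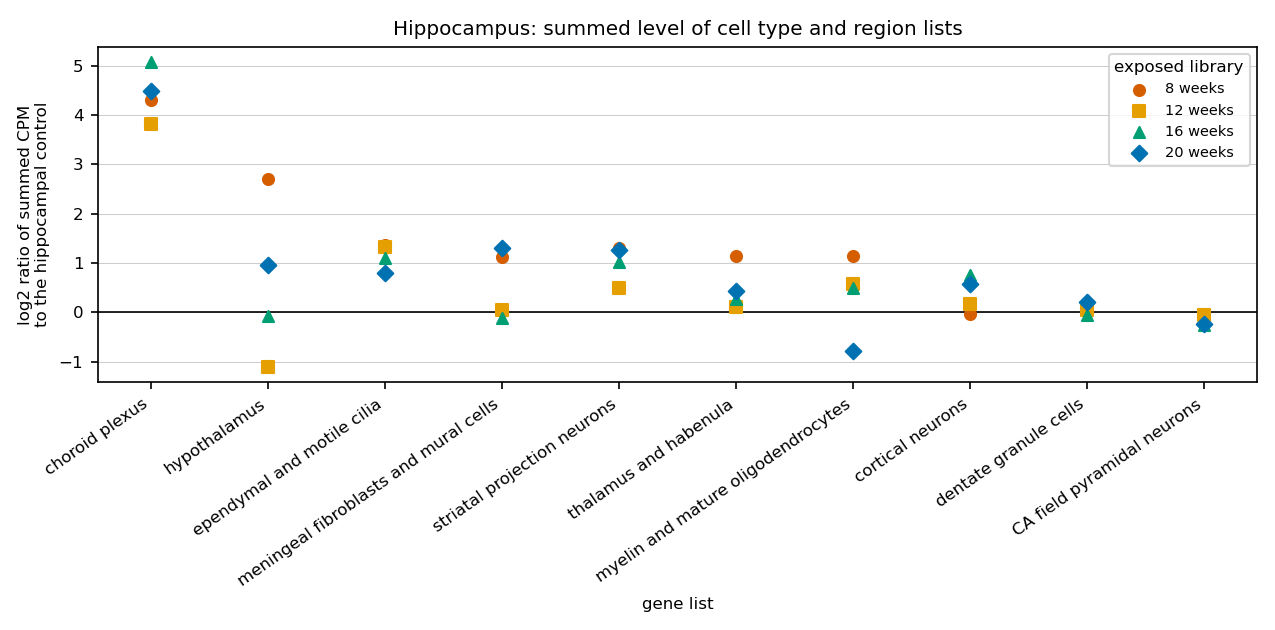
Log2 ratio of the summed CPM (per total counts) of 10 cell type and region lists in each exposed hippocampal library to the control, 1 point per library. The choroid plexus list lies far above the control in all 4 libraries, the ependymal list above it to a smaller extent, and the hypothalamic, meningeal and myelin lists differ between libraries.

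Genes of antigen presentation leaned above the control. Of 16 tested, 10 were above it in all 4 exposed libraries (62.5%, against 22.2% of all genes tested) and 1 below. The median log2 fold change was 0.83. H2-K1, a classical class I heavy chain, had 87 counts in the control and 178, 146, 185 and 160 in the exposed libraries (0.97 ± 0.20, adjusted p = 0.629). H2-D1, the other classical class I gene, had 141 and 280, 292, 273 and 186 (0.90, unadjusted p = 0.00742), and Tap2, a subunit of the peptide transporter, had 68 and 131, 112, 130 and 103. B2m, the light chain of class I molecules, had 1405 and 1882, 1755, 2567 and 1644. In these 4 genes every exposed library exceeded the control, and none passed the edgeR test.

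Class II genes, which mark antigen-presenting cells, were near the detection limit in the control. H2-Aa, a class II alpha chain, had 2 control counts and 32, 17, 24 and 24 exposed counts, a ratio of 12.6 (95% counting interval 3.39 to 105). H2-Ab1 and H2-Eb1, the class II beta chains, had 7 and 4 control counts and 13 to 27 and 11 to 29 exposed counts. Cd74, the invariant chain that escorts class II molecules, had 5 and 20, 12, 28 and 30. All 4 genes were lowest at 12 weeks among the exposed libraries, as were most choroid plexus genes, while Ciita, the class II transactivator, had 12 control counts and only 3 to 8 exposed counts. The class I and class II genes share an upstream box with the letters ATTGG, the Y box, and the RefSeq window of H2-Aa is shown for it (minus strand, chr17:34287774-34288073, GRCm38.p6; capitals mark ATTGG).
H2-Aa: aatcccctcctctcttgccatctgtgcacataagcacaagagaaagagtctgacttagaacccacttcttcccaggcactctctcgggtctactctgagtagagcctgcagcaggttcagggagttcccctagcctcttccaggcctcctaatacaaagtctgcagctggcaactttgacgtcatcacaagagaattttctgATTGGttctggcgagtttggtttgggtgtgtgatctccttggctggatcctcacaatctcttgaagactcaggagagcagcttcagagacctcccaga
ATTGG, searched on both strands and apart from other motifs it may overlap, was in the windows of 11 of the 12 antigen presentation genes in the table, against 41.1% of all 27025 genes. Of the choroid plexus genes, 3 of 12 had it (25%).

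Interferon response genes differed by smaller amounts. Of 21 tested, 12 were above the control in all 4 exposed libraries (57.1%, against 22.2% of all genes tested) and 1 below. The median log2 fold change was 0.57. Ifit3, an antiviral effector (chromosome 19), had 32 counts in the control and 58, 58, 60 and 72 in the exposed libraries (0.99, unadjusted p = 0.0165). Ifitm3, a membrane protein that blocks virus entry, had 134 and 358, 271, 221 and 180, and Xaf1, a pro-apoptotic effector, had 15 and 33, 48, 32 and 25. Stat2, a transcription factor of the pathway, was the member below, with 117 control counts and 91 to 109 exposed counts. The summed level of the list was 121 CPM in the control and 170.0, 169, 171 and 151 CPM in the exposed libraries. The RefSeq window of Ifit3 (plus strand, chr19:34583279-34583578, GRCm38.p6) holds 2 matches in capitals to AANNGAAA, the core that interferon regulatory factors bind, both on the opposite strand.
Ifit3: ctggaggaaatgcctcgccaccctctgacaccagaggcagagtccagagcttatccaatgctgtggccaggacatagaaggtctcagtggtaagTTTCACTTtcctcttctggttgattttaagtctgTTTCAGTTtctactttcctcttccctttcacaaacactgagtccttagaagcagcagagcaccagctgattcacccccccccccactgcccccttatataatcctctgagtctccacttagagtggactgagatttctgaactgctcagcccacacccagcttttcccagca
This core, searched on both strands and apart from other motifs it may overlap, was in windows of 13 of the 17 interferon response genes in the table, against 26.7% of all genes. None of the interferon response genes passed the edgeR test.

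Microglial genes were a little above the control. Of 20 homeostatic microglia genes tested, 12 were above the control in all 4 exposed libraries (60%, against 22.2% of all genes tested). None was below, and the median log2 fold change was 0.235. Cx3cr1, the fractalkine receptor, had 620 counts in the control and 822, 815, 840 and 915 in the exposed libraries (0.49, unadjusted p = 0.0117). Tmem119 had 88 and 162, 135, 131 and 131, and Csf1r, the receptor on which microglial survival depends, had 770 and 942, 929, 924 and 945. P2ry12 and Trem2 had no common side in the 4 exposed libraries after scaling, at 131 control counts and 136 to 165 exposed counts for P2ry12 and 46 and 36 to 63 for Trem2. Spp1, osteopontin, had 4 control counts and 50, 14, 15 and 30 exposed counts. Of the cytokine genes, Il1b had 6 control counts and 2, 3, 8 and 2 exposed counts, and Tnf had 0 in all 5 libraries, so both were too low to test. Among 19 reactive astrocyte genes, 10 (52.6%) were above and 1 below. Serping1, the C1 inhibitor, had 60 and 256, 111, 140 and 112, and C4b, complement component 4, had 67 and 120, 141, 104 and 98. Serpina3n, a common marker of reactive astrocytes, was the member below, at 307 control counts and 283, 195, 166 and 144. Gfap had 936 and 1585, 1037, 1121 and 980. None of these glial genes passed the edgeR test.

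**Figure D4:**
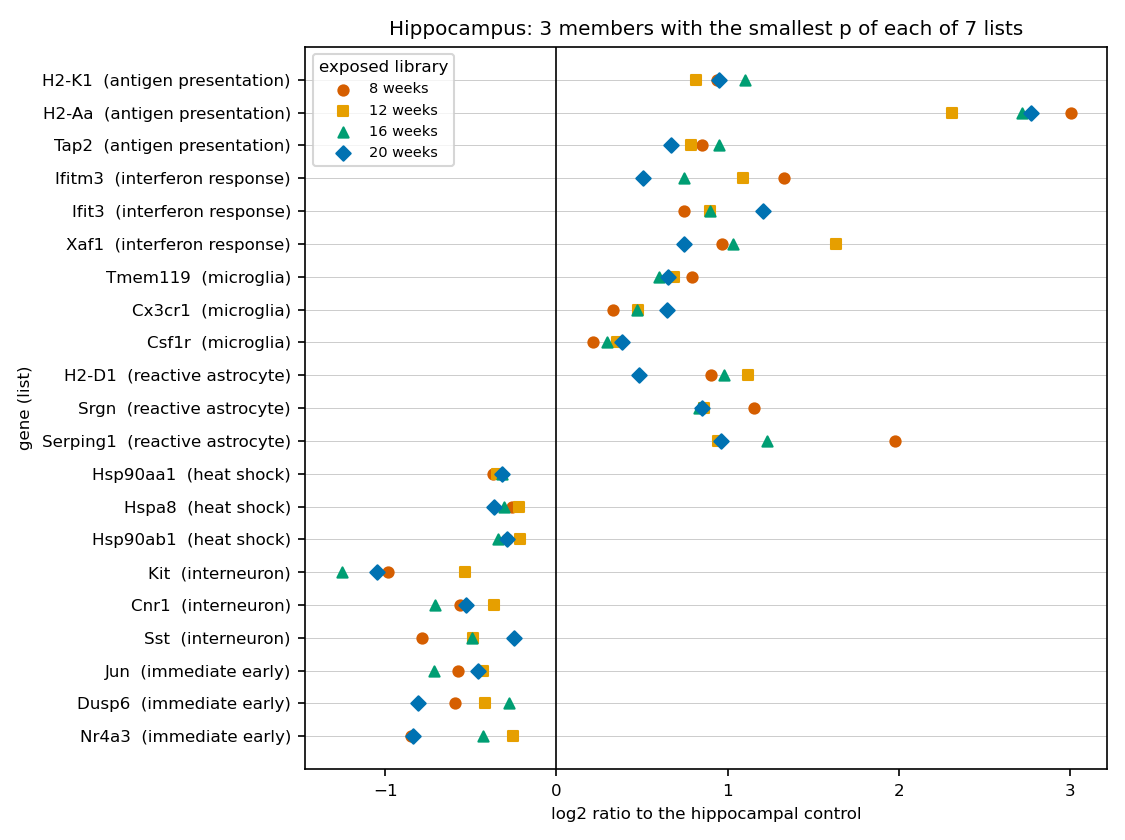
Log2 ratio of each exposed hippocampal library to the control (TMM-scaled CPM, prior count 2) for the 3 members with the smallest unadjusted p in each of 7 lists. Members of the 4 immune and glial lists lie right of 0 and members of the heat shock, interneuron and immediate early lists left of 0 in all 4 libraries; the members were picked for their p, and none passed the adjusted threshold.

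Genes of the responses most studied after particle exposure were mixed. Nfe2l2, which encodes the antioxidant regulator NRF2, had 113 counts in the control and 181, 160, 190 and 140 in the exposed libraries (0.60 ± 0.21, adjusted p = 0.786). Slc7a11, its cystine transporter target, had 239 and 558, 368, 275 and 388. Of 23 NRF2 targets and antioxidant enzymes tested, 8 (34.8%) were above the control in all 4 exposed libraries and 4 (17.4%) below. Over all genes tested, 22.2% were above and 21.3% below. The median log2 fold change of the list was 0.10. Nqo1, a quinone reductase, had 12 control counts and 29, 19, 13 and 28 exposed counts, and Hmox1, haem oxygenase, had 9 and 7, 4, 7 and 8. Cyp1b1, an inducible target of the aryl hydrocarbon receptor, had 11 and 29, 14, 6 and 12, and Cyp1a1 had at most 1 count. The metallothionein genes Mt1 and Mt2 lay on both sides of the control, at 4468 control counts and 3766 to 6133 exposed counts for Mt1, and 2387 and 1858 to 3790 for Mt2. Hmox1 and Cyp1a1 were too low to test, and none of the others passed the edgeR test.

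Neat1, a nuclear long non-coding RNA that builds paraspeckles (chromosome 19, 5824708 to 5845480), belonged to the 2-fold set and to no cell type list. It had 883 counts in the control and 2257, 2466, 2604 and 1786 in the exposed libraries, without overlap (1.40 ± 0.21, edgeR adjusted p = 0.344; DESeq2 adjusted p = 2.24e-07, and up to 0.47 in the other alternatives). With 1 control library, no overlap means that every exposed library lay above it, which was true of 22.2% of all genes tested. Malat1, the neighbour of Neat1 on the chromosome and also nuclear, had 89715 control counts and 83674 to 97456 exposed counts. Meg3 had 98347 and 91387 to 102159, so neither had a common side. Rian, a non-coding RNA of the imprinted Meg3 locus, had 1747 and 1428, 1210, 1239 and 1102.

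On the lower side, the 4 genes of the 2-fold set were Cpne2, Cpne7, Tacr3 and Figf. Cpne7 and Cpne2 encode copines, calcium-dependent membrane-binding proteins. Cpne7 (chromosome 8, 123117313 to 123135185) had 1650 counts in the control and 704, 766, 327 and 616 in the exposed libraries (-1.42 ± 0.34), and Cpne2 (chromosome 8, 94532674 to 94570529) had 581 and 305, 233, 194 and 262 (-1.20 ± 0.19, edgeR adjusted p = 0.344; DESeq2 adjusted p = 0.00138, and up to 0.536 in the other alternatives). Tacr3, the receptor of neurokinin B, had 56 and 16, 16, 6 and 9, and Figf, a vascular endothelial growth factor gene now named Vegfd, had 87 and 12, 12, 13 and 36. In cortex all 4 genes lay on both sides of their control, as did 59% of all genes tested. Plagl1, an imprinted zinc finger gene named after its values were seen and outside the 2-fold set, had 265 control counts and 138, 110, 104 and 147 exposed counts.

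Interneuron and CA field genes lay below the control in a larger share of members than all genes tested, and dentate granule and cortical neuron genes did not. Of 18 interneuron genes tested, 8 were below the control in all 4 exposed libraries (44.4%, against 21.3% of all genes tested) and none above. Sst, somatostatin, had 3082 counts in the control and 1887, 2079, 2140 and 2444 in the exposed libraries (-0.49, unadjusted p = 0.0242). Cnr1, the cannabinoid receptor of basket cells, had 710 and 506, 520, 424 and 463, and Kit, a receptor tyrosine kinase of interneurons, had 474 and 252, 309, 193 and 215. Pvalb and Vip straddled the control, with 307 control counts and 156 to 400 exposed counts for Pvalb and 106 and 72 to 146 for Vip. Of 15 CA field genes, 6 were below (40%) and 1 above. Fibcd1 had 652 and 372, 478, 236 and 243. Dentate granule genes did not share this side, with 3 of 15 above (20%, against 22.2% of all genes tested) and none below. The summed level of this list was 611 CPM in the control and 586 to 702.5 CPM in the exposed libraries. Cortical neuron genes did not share the lower side either, with 4 of 19 above (21.1%) and 1 below. Of 26 immediate early genes, 7 were below, a share of 26.9% that is near that of all genes, and 2 above (median log2 fold change -0.06). Jun, a subunit of the AP-1 factor, had 1219 and 861, 855, 723 and 833, while Fos had 93 and 47, 72, 159 and 35 and Arc 475 and 299, 452, 884 and 220, both highest at 16 weeks. Bdnf, a neurotrophin, had 1296 and 1102, 1214, 1154 and 1173. None of these neuronal genes passed the edgeR test.

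Chaperones and the machinery of energy and protein supply lay slightly below the control in many members. Of 16 heat shock chaperone genes, 10 were below the control in all 4 exposed libraries (62.5%, against 21.3% of all genes tested) and 1 above. Hsp90aa1 had 11086 counts in the control and 9060, 8241, 8681 and 8371 in the exposed libraries (-0.34, unadjusted p = 0.0128), Hsp90ab1 had 22736 and 19595, 18543, 17539 and 17499, and Hspa8 had 3949 and 3472, 3200, 3121 and 2885. The stress-inducible Hspa1a, in contrast, had 87 and 72 to 103. Of 75 subunit genes of oxidative phosphorylation, 39 (52%) were below and 4 above (median log2 fold change -0.11). Atp5f1, a subunit of the ATP synthase stalk, had 1455 and 1174, 1163, 1039 and 958. Of 76 cytosolic ribosomal protein genes 34 (44.7%) were below and 6 above (median -0.08), and of 34 proteasome genes 15 (44.1%) were below and 2 above. With library totals alone as the scaling, 30 oxidative phosphorylation, 27 ribosomal protein and 9 proteasome genes were below, where 18.6% of all genes were. In cortex the sides differed. Of the 75 oxidative phosphorylation genes, 32 were above the cortical control in all 4 exposed libraries and 4 below. Of the 76 ribosomal protein genes, 52 were above and 8 below. Over all genes tested, 20.5% were above the cortical control and 20.6% below. The difference between the tissues was not tested for the lists, and none of their members passed the edgeR test in hippocampus or the test of the difference.

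**Figure D5:**
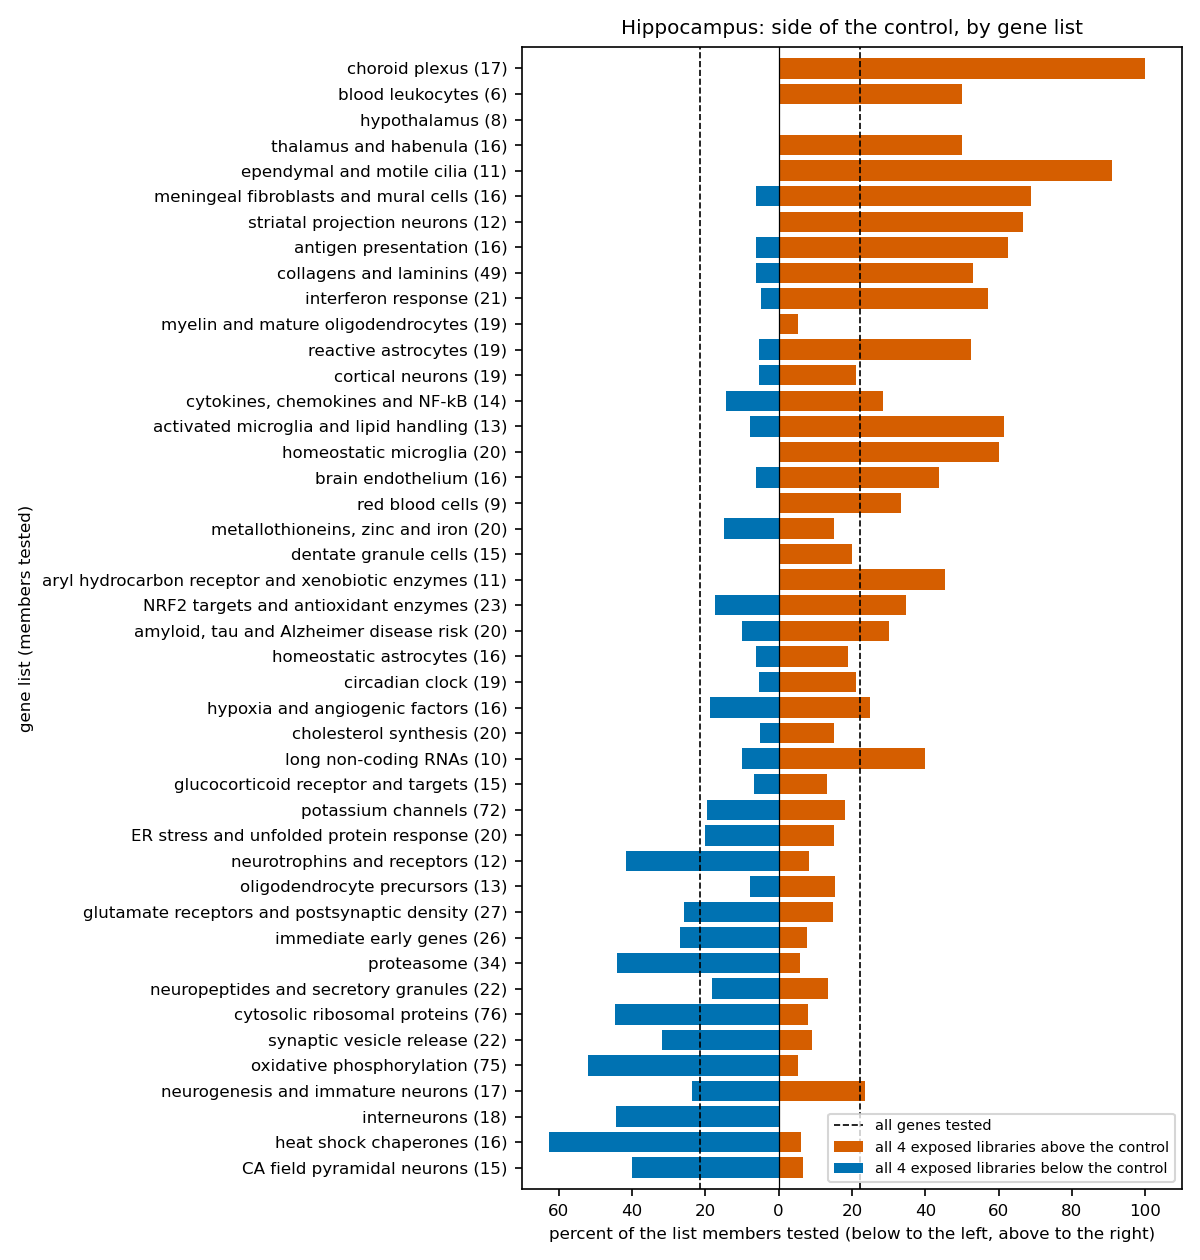
Percent of the tested members of 44 gene lists that were above (right) or below (left) the hippocampal control in all 4 exposed libraries, ordered by the median log2 fold change, with the number of members tested in parentheses. Dashed lines give the shares of all genes tested, 22.2% above and 21.3% below; the choroid plexus and ependymal lists reach furthest right and the heat shock and oxidative phosphorylation lists furthest left.

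Over all genes tested, the sides of the control in the 2 tissues were related only weakly. Of the 3278 genes above the hippocampal control in all 4 exposed libraries, 17.9% were above the cortical control in all 4 exposed libraries and 23.4% were below it, where 20.5% and 20.6% of all genes were. Of the 3152 genes below the hippocampal control, 24.1% were above the cortical control and 16.6% were below it. The tissues had separate controls, and the labels do not state whether both tissues came from the same mice.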

How the data were processed

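Per the labels' protocols, TRIzol RNA was pooled within groups and its 3' ends were sequenced with oligo-dT priming (single end, 75 bp). The authors deposited unnormalized counts for each gene symbol; the submitters' processing notes name mm10, Bowtie2, bedtools and edgeR, while versions, annotation and strand setting are not given in the sources used here. Each file was checked to hold 23282 lines with 23238 symbols, repeated symbols were summed, and 27 date-like symbols in each of 2 files were restored.

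Exposed and control libraries were compared with the quasi-likelihood test of edgeR 4.0.16 (R 4.3.3; TMM scaling, factors 0.983 to 1.026; filterByExpr; Benjamini-Hochberg threshold 0.05; 3 residual degrees of freedom). The p-values reflect no more than the spread between libraries. Because the control group was a single library, a gene with few control counts could pass the filter through exposed libraries alone. The difference between tissues was an interaction over 10 libraries. Alternatives were DESeq2 1.42.0, limma 3.58.1 (voom), other scalings, filters, folds and leaving out libraries. Scripts were tested on simulated data. Libraries held 7.31 to 8.65 M counts over both tissues; 3 counts, the floor used for a control at 0, equal 0.371 to 0.399 CPM in hippocampus, and intervals (exact, 95%) cover counting error only. CPM is per total counts unless TMM-scaled is written.

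A rule set which genes could be named. It took the 12 genes per direction with the largest smallest ratio in the 2-fold set. It also took the 3 members with the smallest p of each of 44 lists, 24 key genes and the 3 smallest-p interaction genes per direction. With the rest of the 2-fold set these were 170 genes, and 166 had a RefSeq position (GRCm38.p6, the assembly of mm10). The text gives only a part of them, and gives further list and 2-fold members for their roles. Members and lists were chosen with earlier results of these data known.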

Additional observations from a re-analysis of the deposited data

Results flagged for a closer look

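In 7 of 167 genes looked at, fewer than the 1 in 20 that chance alone flags, 1 of the 4 exposed hippocampal libraries stood apart from the other 3 by Dixon's ratio, the gap to the nearest library over the whole range of log2 CPM. These were Figf at 20 weeks (high, 0.883), Mpped1 at 12 weeks (high, 0.854), Pmch at 8 weeks (high, 0.841), Lgals3 at 12 weeks (high, 0.887), Myd88 at 12 weeks (low, 0.886), Srgn at 8 weeks (high, 0.912) and Bhlhe41 at 20 weeks (low, 0.916).

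The change against the control differed between hippocampus and cortex in the edgeR interaction test for 16 genes. The difference of the log2 fold changes, hippocampus minus cortex, was 10.71 for Ttr, 8.54 for Aqp1, 7.98 for Kcnj13, 7.70 for Kcne2, 7.07 for Otx2, 6.85 for Clic6, 6.80 for 1500015O10Rik and 6.53 for F5. It was 5.63 for Prlr, 5.09 for Lbp, 4.59 for Rbm47, 4.55 for Sostdc1, 3.97 for Kl, 3.74 for Enpp2 and 2.46 for Plekhh2. For Tmem72, which had 0 counts in the hippocampal control, only the adjusted p of 0.0454 is given. Col8a1 (3.72) and Spef2 (2.78) lay above the control in all 4 exposed libraries of hippocampus and below it in all 4 of cortex, and their difference did not pass the threshold.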

How the results depend on the processing

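Against the control, edgeR called 3 genes and DESeq2 22; leaving out 1 exposed library gave 0 to 10. The 28 genes of the 2-fold set became 120 at 1.5-fold, 15 at 3-fold, 146 with a minimum of 10 counts, 5 with 200, and 33 to 61 with 1 exposed library left out, which can only add genes. The 16 genes whose change differed between tissues became 3 with limma-voom, 41 with DESeq2 and 11 to 17 with 1 exposure time left out. With exposure time as a replicate block pairing the tissues they became 17, 16 of them shared. No paired analysis was possible within hippocampus because the control is 1 library. Among 167 hippocampal log2 fold changes, only those of Ttr, Clic6 and Otx2 had a call in the main fit, and each lost it in 1 or more alternatives. For the other genes, keeping a side of the threshold means staying without a call. With that limit, 142 of the 167 kept their direction and side of the threshold in each alternative. Those that changed sign had no call: App was 0.013 with total counts alone and 0.005 with a mean of at least 50 counts (-0.041 to 0.002 with 1 library left out), Rn45s was 0.004 with total counts alone (-0.099 to 0.050), and with 1 library left out Fos ranged from -0.822 to 0.014, Mt2 from -0.071 to 0.240, Cldn5 from -0.160 to 0.053 and Trem2 from -0.100 to 0.227. The cause was not tested. The single control, a pool of unstated size, limits each result: exposure, age, total dose and that library cannot be told apart.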
